A study of Mus musculus with 24 samples.

Results

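Expression of 10 circadian clock genes was examined in tissue-engineered constructs collected 2 weeks after implantation under the skin of mice. The genes were Nr1d1, Nr1d2, Dbp, Tef, Per1, Per2, Per3 and Cry1 of the repressor and output arm, and Arntl and Npas2 of the activator arm. They were found by their symbols among 51138 genes in the count table, and all 10 were among the 30564 genes tested. They had been selected on their measured expression, since earlier results of these same samples showed them to differ between groups. Their values are therefore given as a description, with standard errors but without p-values.

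All hosts were Foxp3 DTR/eGFP mice aged 8 to 9 weeks, of both sexes, in which the diphtheria toxin receptor and green fluorescent protein are driven by Foxp3, the defining transcription factor of regulatory T cells (Treg). Each construct held 40 mg of biphasic calcium phosphate granules (BCP), a ceramic bone substitute. The BCP group carried no cells. The BCP+MSC group carried 800000 mesenchymal stromal cells (MSC) from the bone marrow of C57BL/6J mice, the BCP+MSC+RvE1 group carried MSC primed with 10 nM resolvin E1 (RvE1), a lipid mediator that resolves inflammation, and the BCP+MSC+Treg group carried MSC together with Treg. In the (dep)BCP+MSC group the hosts of BCP+MSC constructs received diphtheria toxin at 50 µg per kg, repeatedly and into the peritoneum. The (dep)BCP+MSC+RvE1inj group received the same toxin and 1 µM RvE1 injected daily at the implant. Each group held 4 mice, so that 16 hosts were untreated and 8 were given toxin. No group received toxin without carrying the receptor, and toxin was given in a separate experiment, so that toxin, loss of Treg and the experiment cannot be told apart. The paper describes no vehicle injections in the other groups. Toxin and injected RvE1 thus cannot be told apart from repeated injection and handling either. The time of day of collection is not given in the sources used here.

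The mammalian clock is a feedback loop of transcription. ARNTL (also called BMAL1) pairs with CLOCK or its relative NPAS2 and binds E-boxes, switching on the Per and Cry genes, whose proteins later block that pair. The same pair switches on Nr1d1 and Nr1d2, which encode the repressors REV-ERBα and REV-ERBβ, and these silence Arntl and Npas2 through ROR elements. DBP and TEF are output factors that bind D-boxes. In most tissues the REV-ERB and Dbp transcripts peak before those of the Per genes and Cry1, while Arntl and Npas2 peak at the opposite phase, and Per1 is also induced directly by glucocorticoids.

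Stretches of promoter that hold E-boxes or D-boxes are shown because these are the elements through which the loop acts. RefSeq windows on GRCm38.p6 were searched over the 250 bases before the start, on both strands, for the E-box CACGTG, the D-box TTANGTAA, the ROR element, and the cyclic AMP element TGACGTCA. There were 12 windows for 9 members, and Per2 was not searched. E-boxes lay in 4 windows of 3 members (both Tef windows, 1 of 2 Per1 windows and that of Cry1), against 6.02% of all 32851 windows. The Per3 window held D-boxes at 2 positions, against 2.06% of all windows with any. No member window held the ROR element (0.35% of all windows) or the cyclic AMP element (1.55%). Bases after the start and other spellings were not searched, so the lack of a match does not show that a gene lacks the element. No match overlapped one of another motif. The motif is in capitals, and exon bases were left out, among them the other Tef window.
Per3 (chr4:151044756-151044915, minus strand, D-boxes): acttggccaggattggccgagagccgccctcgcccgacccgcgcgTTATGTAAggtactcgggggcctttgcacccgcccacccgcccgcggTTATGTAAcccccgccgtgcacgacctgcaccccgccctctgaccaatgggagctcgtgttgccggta
Per1 (chr11:69098723-69098848, plus strand, E-box): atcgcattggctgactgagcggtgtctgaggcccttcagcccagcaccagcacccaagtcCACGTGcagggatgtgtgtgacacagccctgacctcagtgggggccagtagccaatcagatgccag
Cry1 (chr10:85185065-85185174, minus strand, E-box): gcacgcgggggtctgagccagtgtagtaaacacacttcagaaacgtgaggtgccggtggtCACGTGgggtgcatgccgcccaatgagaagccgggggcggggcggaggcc
Tef (chr15:81811216-81811341, plus strand, E-box): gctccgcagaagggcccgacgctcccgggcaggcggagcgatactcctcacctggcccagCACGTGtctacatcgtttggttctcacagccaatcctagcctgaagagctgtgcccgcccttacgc
Counted from the start, the E-box began at base -166 in Per1, -60 in Cry1 and -138 in Tef, and the D-boxes began at bases -205 and -158 in Per3. The Per1 and Tef stretches lie inside the annotated genes, outside exons, and those of Cry1 and Per3 lie upstream of theirs. A match of letters is not a site of binding.

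Whole constructs were sequenced, so RNA of seeded cells and of host tissue was measured together, and fewer cells of a type cannot be told apart from less RNA per cell. Total counts ran from 8482701 to 144417743 per sample. The lowest of the 240 counts of members was 21, so no member was near the limit of detection. Foxp3 was at 0.933 ± 0.24 CPM (counts scaled to the library's total, with TMM factors) in BCP+MSC, 0.985 ± 0.542 CPM in (dep)BCP+MSC and 0.705 ± 0.315 CPM in (dep)BCP+MSC+RvE1inj (SD, n = 4 each). Toxin-treated and untreated samples overlapped, with a log2 fold change of -0.15 (SE 0.31; edgeR's quasi-likelihood test, adjusted p = 0.832). A lower level of Foxp3 transcripts after toxin was thus not detectable in the constructs, where all samples were low, at 0.30 to 2.14 CPM. The paper reports that loss of Treg was established by flow cytometry in lymph nodes and spleen, which are other tissues than the constructs. The columns of (dep)BCP+MSC were numbered 1, 2, 4 and 5, and those numbered 4 and 5 could not be tied to single labels. Replicates 1 and 2 of that group stood apart in several clock genes, so results that rest on them are given with and without both. Replicate 1 was the shallowest of all samples, and its 10 epidermis and hair markers had a mean log2 CPM of 4.63, against -0.39 to 1.12 in the other samples of its group.

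Per length of exon, Per1 and Nr1d1 had the highest levels among the members, with means over all 24 samples of 18.6 and 17.2 FPKM (CPM divided by exon length in kilobases). Tef followed at 13.6 FPKM and Nr1d2 at 6.59 FPKM. Cry1 (4.97 FPKM), Dbp (3.53 FPKM), Per2 (3.38 FPKM), Npas2 (3.21 FPKM) and Arntl (3.10 FPKM) followed with neighbouring levels that did not differ beyond their spread, and Per3 had the lowest mean, 1.43 FPKM. The order depended on the group. In BCP, Per1 (12.2 FPKM) was the highest and Nr1d1, at 4.03 FPKM, lay below Cry1, at 6.79 FPKM. Under toxin alone, Nr1d1 and Per1 had means of 44.5 and 44.4 FPKM, a difference far within their spread.

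Nr1d1 (ENSMUSG00000020889.11, GRCm38 chromosome 11 from 98767932 to 98775333) varied most, 38.4-fold between the lowest and the highest sample. The BCP samples had 11.4, 23.6, 8.60 and 5.98 CPM, and those of BCP+MSC had 44.2, 39.5, 40.6 and 47.1 CPM. BCP+MSC+RvE1 had 67.9, 36.0, 40.7 and 35.5 CPM, and BCP+MSC+Treg 32.1, 20.4, 26.8 and 11.3 CPM. For (dep)BCP+MSC the values were 229.9, 201, 65.6 and 51.1 CPM, and in (dep)BCP+MSC+RvE1inj 55.3, 51.6, 67.0 and 54.6 CPM. By mean, BCP was thus lowest and the untreated groups with MSC lay between. The (dep)BCP+MSC group held a pair of samples above 200 CPM and a pair within reach of (dep)BCP+MSC+RvE1inj. Single samples overlapped. BCP replicate 2 was above BCP+MSC+Treg replicates 2 and 4, and BCP+MSC+RvE1 replicate 1 was above all (dep)BCP+MSC+RvE1inj samples in Nr1d1. Its paralogue Nr1d2 (chromosome 14 from 18204054 to 18239127) was steadier, at 13.5 to 16.9 CPM in BCP, 18.6 to 36.7 CPM in BCP+MSC and 12.0 to 20.9 CPM in BCP+MSC+Treg. Under toxin alone it was at 75.0, 65.6, 56.9 and 47.9 CPM, above every untreated sample except BCP+MSC+RvE1 replicate 1, at 49.7 CPM. Thra overlaps Nr1d1 on the opposite strand, and reads falling in both genes were not counted.

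Dbp (chromosome 7 from 45705088 to 45710203) was at 10.4, 9.74, 9.22 and 4.84 CPM in BCP+MSC and at 15.9, 17.8, 15.4 and 12.9 CPM in (dep)BCP+MSC. With RvE1 injections Dbp was at 18.3, 21.8, 14.8 and 16.4 CPM, and in BCP+MSC+Treg at 4.14, 3.59, 4.02 and 1.73 CPM. The toxin-treated samples lay above the other samples with 1 exception, BCP+MSC+RvE1 replicate 1, which had the highest value of all at 35.5 CPM. Tef (chromosome 15 from 81802421 to 81826861) was at 54.8, 45.0, 64.0 and 81.4 CPM in BCP+MSC, 230.3, 209, 152 and 134 CPM in (dep)BCP+MSC, and 107, 161, 294 and 120.2 CPM in (dep)BCP+MSC+RvE1inj. The untreated groups other than BCP+MSC+RvE1 (73.6 to 148 CPM) stayed between 39.2 and 85.3 CPM. Sphk2 overlaps Dbp, and Gm17597 overlaps Tef, each on the opposite strand.

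Among the Period genes, Per1 (chromosome 11 from 69095217 to 69109960) was at 42.0, 36.9, 87.8 and 40.8 CPM in BCP+MSC, 396, 336, 154 and 115 CPM in (dep)BCP+MSC, and 124, 129.7, 199.6 and 127 CPM in (dep)BCP+MSC+RvE1inj. All 8 toxin-treated samples (115 to 396 CPM) lay above all 16 untreated samples (28.6 to 105 CPM). With RLE normalization the lowest toxin-treated value was 112.0 CPM and the highest untreated value 112.9 CPM, so the separation depended on the scaling. Per2 (chromosome 1 from 91415982 to 91459324) was at 15.5, 27.8, 22.4 and 31.4 CPM in the BCP samples, while those of BCP+MSC had 8.38, 12.7, 9.09 and 8.44 CPM. It was at 42.7, 41.2, 31.4 and 19.3 CPM in (dep)BCP+MSC and at 23.1, 27.8, 29.7 and 31.8 CPM in (dep)BCP+MSC+RvE1inj. The toxin-treated samples thus shared the range of BCP and were above all other untreated groups. Per3 (chromosome 4 from 151003652 to 151044665) was at 15.9 to 25.1 CPM in the 8 toxin-treated samples and at 6.08 to 11.1 CPM in the untreated ones, except for 26.9 CPM in BCP+MSC+RvE1 replicate 1. Camta1 overlaps Per3 on the same strand.

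Cry1 (chromosome 10 from 85131700 to 85185064) encodes the cryptochrome that, with the PER proteins, represses the ARNTL pair. The BCP samples had 20.5, 22.5, 24.8 and 23.0 CPM, those of BCP+MSC 7.91, 9.33, 7.12 and 15.4 CPM, those with primed MSC 11.0, 6.44, 15.7 and 10.8 CPM, and those with added Treg 16.2, 15.6, 22.0 and 16.6 CPM. The values were 19.7, 27.2, 19.9 and 21.4 CPM in (dep)BCP+MSC and 16.2, 16.1, 13.7 and 19.3 CPM in (dep)BCP+MSC+RvE1inj. Cry1 was thus as high in BCP as in (dep)BCP+MSC, a group order unlike that of Nr1d1.

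In the activator arm, Npas2 (chromosome 1 from 39193731 to 39363236) had 20.7, 17.5, 22.0 and 25.9 CPM in the BCP samples, 21.4, 23.6, 14.6 and 20.7 CPM in those of BCP+MSC, 14.4, 22.4, 16.7 and 16.3 CPM with primed MSC, and 16.3, 14.6, 19.7 and 18.9 CPM with added Treg. It was at 10.5, 7.85, 13.2 and 5.69 CPM in (dep)BCP+MSC and at 9.29, 8.84, 4.48 and 3.91 CPM in (dep)BCP+MSC+RvE1inj. All 8 toxin-treated samples were below all 16 untreated samples, with RLE normalization as well. Arntl (chromosome 7 from 113207465 to 113314126) was at 19.5, 27.6, 17.9 and 31.1 CPM in BCP+MSC, 43.3, 25.8, 22.5 and 16.1 CPM in (dep)BCP+MSC, and 15.6, 15.2, 10.5 and 14.9 CPM in (dep)BCP+MSC+RvE1inj. It overlapped between BCP+MSC and (dep)BCP+MSC, whose replicate 1 held the highest value of all 24 samples, and it was lower without overlap in (dep)BCP+MSC+RvE1inj. Gm20428 overlaps Npas2 and Gm45355 overlaps Arntl on the opposite strand, and Gm3617 overlaps Npas2 on the same strand.

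**Figure D1:**
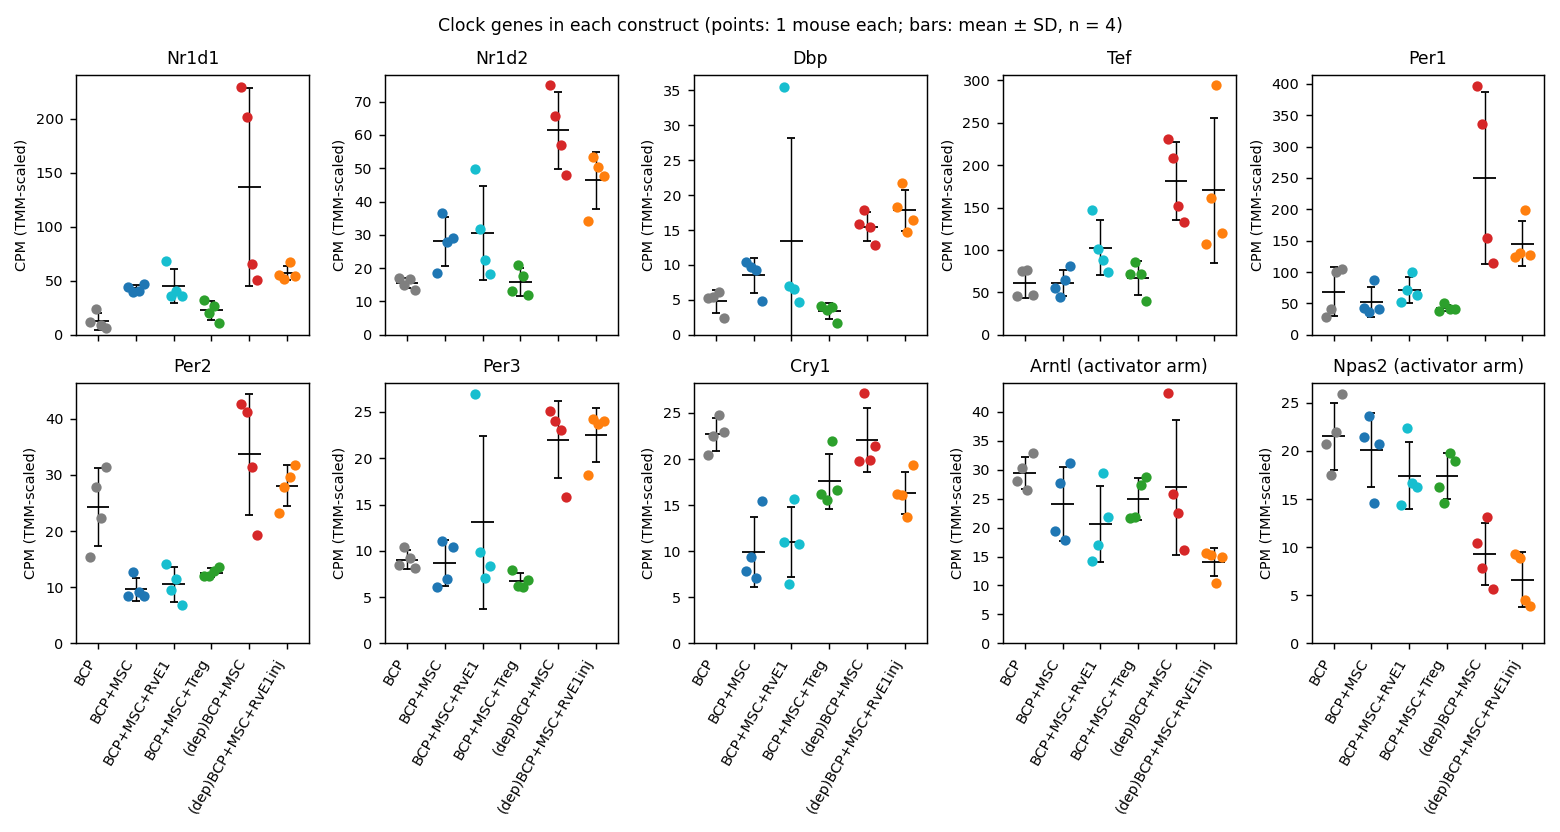
TMM-scaled CPM (y axis, from 0) of the 10 clock genes in the 6 groups (x axis), with 1 point per mouse and bars for the mean ± SD of 4 mice. Per1 and the other repressor and output genes were highest in the toxin-treated groups (red and orange) except Cry1, which was as high in BCP, while Npas2 was lowest there, and 2 of the 4 (dep)BCP+MSC mice carried the highest Nr1d1 values.

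Across both toxin-treated groups against the 4 untreated groups, the 8 genes of the repressor and output arm were higher on average, by log2 fold changes from 0.39 (SE 0.15) for Cry1 to 1.73 (SE 0.23) for Per1. The fold changes were 1.70 (SE 0.25) for Nr1d1, 1.31 (SE 0.16) for Nr1d2, 1.33 (SE 0.27) for Dbp, 1.30 (SE 0.18) for Tef, 1.21 (SE 0.15) for Per2 and 1.28 (SE 0.18) for Per3. Npas2 was lower by -1.27 (SE 0.18), and Arntl was at -0.34 (SE 0.16). At an adjusted p-value under 0.05 in edgeR, 7 of the 8 passed as higher (Cry1 did not) against 8.79% of all genes tested, and Npas2 passed as lower against 7.17%. Only Per1 was without overlap as higher (0.386% of all genes) and Npas2 as lower (0.628%). Since the members were chosen with this contrast known, nothing is read from these counts. Without (dep)BCP+MSC replicates 1 and 2, the same 7 passed as higher, and Arntl passed as lower beside Npas2.

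The comparison of (dep)BCP+MSC with BCP+MSC addressed what toxin treatment went with around the same construct. All 8 genes of the repressor and output arm had higher values in every (dep)BCP+MSC sample than in any BCP+MSC sample (4.22% of all genes were higher without overlap), and Npas2 had lower values (4.93%). The log2 fold changes were 2.27 (SE 0.41) for Per1, 1.80 (SE 0.26) for Per2, 1.67 (SE 0.43) for Nr1d1, 1.56 (SE 0.31) for Tef, 1.35 (SE 0.31) for Per3, 1.15 (SE 0.25) for Cry1, 1.13 (SE 0.27) for Nr1d2 and 0.86 (SE 0.46) for Dbp. Npas2 was at -1.11 (SE 0.28) and Arntl at 0.16 (SE 0.26). By edgeR's adjusted p-value, 7 of the 8 passed as higher (1.75% of all genes) and Npas2 as lower (2.17%). Without replicates 1 and 2 of (dep)BCP+MSC, only Per2 passed. The log2 fold change was then 0.46 for Nr1d1, 1.39 for Per1, 1.41 for Per2 and -0.30 for Arntl, while Tef (1.23), Per3 (1.19), Cry1 (1.07) and Npas2 (-1.07) moved by less than the spread between replicates. Without BCP+MSC replicate 1, or without (dep)BCP+MSC replicate 1, 4 of the 8 passed. Npas2 did not pass without BCP+MSC replicate 1 or 2, or without (dep)BCP+MSC replicate 1 or 2 or column 5.

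The same BCP+MSC samples served as control for (dep)BCP+MSC+RvE1inj, so the values are set side by side only. Here the log2 fold changes were 1.54 (SE 0.26) for Per2, 1.48 (SE 0.31) for Tef, 1.48 (SE 0.40) for Per1, 1.38 (SE 0.31) for Per3, 1.06 (SE 0.46) for Dbp, 0.72 (SE 0.26) for Nr1d2, 0.71 (SE 0.25) for Cry1 and 0.41 (SE 0.42) for Nr1d1. Both activators were lower without overlap, Npas2 by -1.58 (SE 0.28) and Arntl by -0.77 (SE 0.26), against 4.44% of all genes. Conversely, 6 of the 8 were higher without overlap (2.77% of all genes), all but Nr1d2 and Cry1. Tef, Per2 and Per3 passed as higher by the adjusted p-value (0.258% of all genes) and Npas2 as lower (0.461%). Without (dep)BCP+MSC+RvE1inj replicate 3, or without BCP+MSC replicate 1, 2 or 3, Per2 was the 1 gene left of the 3, and Per1 passed besides without BCP+MSC replicate 3. Npas2 did not pass without (dep)BCP+MSC+RvE1inj replicate 4.

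Between the toxin-treated groups, which differed by the RvE1 injections, no member passed, and 0 of all genes tested passed as higher or as lower (2269 genes had an unadjusted p-value under 0.05 in edgeR, and 8 genes passed in DESeq2). Without the (dep)BCP+MSC columns 4 and 5, Nr1d1 and Arntl passed as lower, and with a block for the replicate number as well Nr1d1, Per1 and Arntl did. Arntl and Cry1 were lower in every (dep)BCP+MSC+RvE1inj sample than in any (dep)BCP+MSC sample, against 1.3% of all genes. Arntl had a log2 fold change of -0.93 (SE 0.26) and Cry1 of -0.43 (SE 0.25). Nr1d1 was at -1.26 (SE 0.43) and Per1 at -0.78 (SE 0.40), but at -0.01 and 0.13 without (dep)BCP+MSC replicates 1 and 2, so that these differences rested on that pair of mice. Per3 and Tef were at 0.03 (SE 0.31) and -0.09 (SE 0.31).

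**Figure D2:**
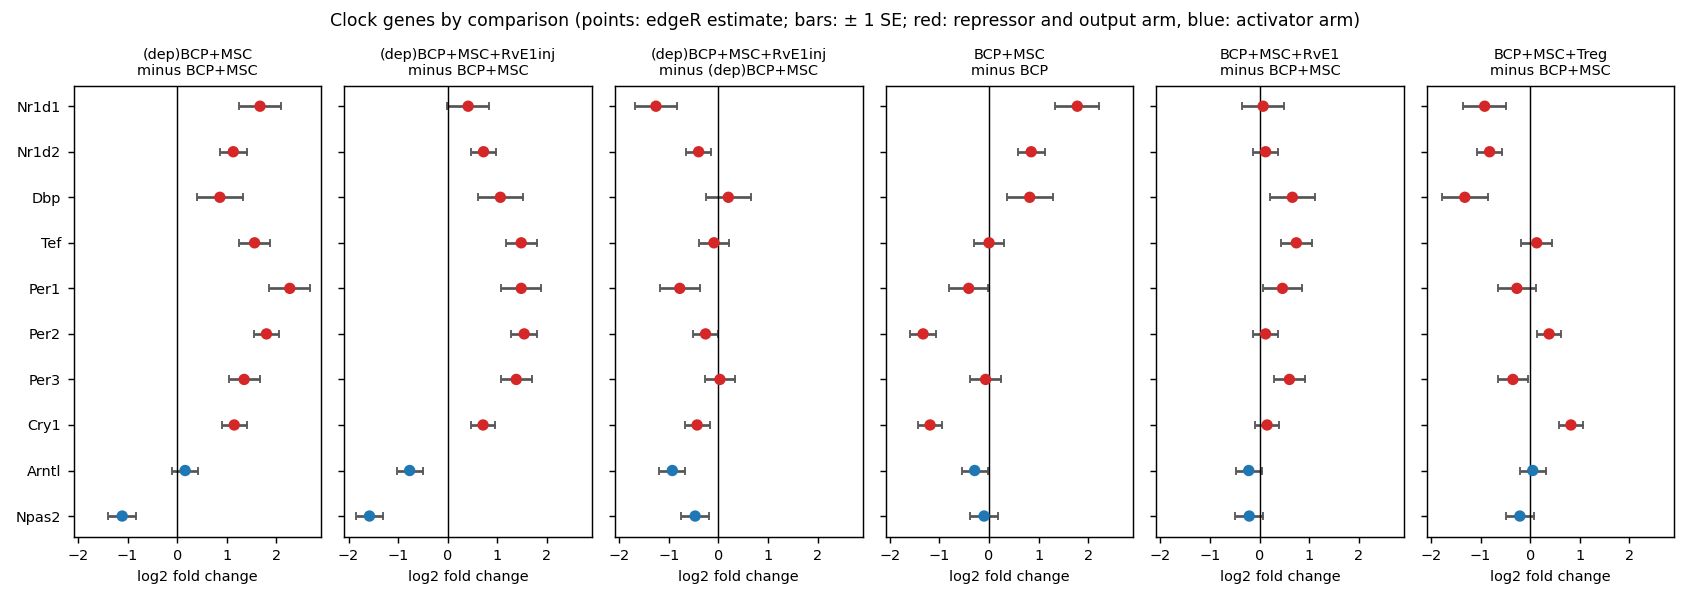
Log2 fold changes (x axis) of the 10 clock genes (y axis) from the edgeR model in 6 comparisons of groups of 4 mice, with bars of 1 SE, in red for the repressor and output arm and in blue for the activator arm. In both comparisons of toxin-treated with BCP+MSC mice the red points lie right of 0 and Npas2 left of it, while in BCP+MSC against BCP the red points lie on both sides.

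BCP+MSC was compared with BCP to see what went with the seeded cells. The repressor and output genes did not shift as 1 group. Nr1d1 was higher in BCP+MSC without overlap, by a log2 fold change of 1.78 (SE 0.44), and so was Nr1d2, by 0.85 (SE 0.27), against 1.25% of all genes. Per2 was lower without overlap, by -1.33 (SE 0.26), and so was Cry1, by -1.19 (SE 0.25), against 0.566% of all genes. Dbp was at 0.82 (SE 0.46), Per1 at -0.41 (SE 0.39), Per3 at -0.07 (SE 0.31) and Tef at 0.00 (SE 0.31), and Arntl and Npas2 were at -0.29 (SE 0.26) and -0.10 (SE 0.28). No gene in the table passed the adjusted p-value in edgeR (1546 genes had an unadjusted p-value under 0.05). In DESeq2 6 genes passed, of which 2 were members, Per2 and Cry1, both as lower. With any 1 mouse left out, the fold changes stayed between 1.56 and 2.30 for Nr1d1, -1.50 and -1.18 for Per2, and -1.48 and -1.06 for Cry1.

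BCP+MSC+Treg, set against BCP+MSC, lay on the BCP side for the same genes, though both comparisons share the BCP+MSC samples and are not independent. Nr1d1 was at -0.92 (SE 0.43) and Dbp at -1.32 (SE 0.46), each lower without overlap against 0.694% of all genes, and Nr1d2 was at -0.82 (SE 0.26). Cry1 was higher without overlap, at 0.82 (SE 0.25), against 0.357% of all genes, and Per2 was at 0.38 (SE 0.25). Tef, Per1, Per3, Arntl and Npas2 were between -0.35 and 0.13. The adjusted p-value was passed by 0 genes (830 had an unadjusted p-value under 0.05 in edgeR, and 0 passed in DESeq2).

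For BCP+MSC+RvE1 against BCP+MSC, all 10 members overlapped (0.867% of all genes were higher and 0.847% lower without overlap), and 0 genes passed the adjusted p-value (996 had an unadjusted p-value under 0.05 in edgeR, and 3 passed in DESeq2). The largest fold changes were 0.74 (SE 0.31) for Tef, 0.66 (SE 0.45) for Dbp and 0.60 (SE 0.31) for Per3. Those of Dbp and Per3 rested on replicate 1, without which they were -0.49 and -0.03.

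Among the untreated groups, BCP and BCP+MSC+Treg had the lower means of Nr1d1 and the higher means of Cry1. The ratio of these genes was taken within each sample. The log2 ratio of Nr1d1 to Cry1 was -1.06 ± 0.88 in the BCP samples, 2.17 ± 0.42 in those of BCP+MSC, 2.05 ± 0.60 with primed MSC and 0.27 ± 0.64 with added Treg (SD, n = 4 each). The 8 samples of BCP+MSC and BCP+MSC+RvE1 (1.37 to 2.63) lay above the 8 of BCP and BCP+MSC+Treg (-1.94 to 0.99). The genes and this grouping were chosen with their values known, so this separation is a description, and nothing is read from it. The toxin-treated groups, at 2.35 ± 1.05 and 1.81 ± 0.34, were in the range of BCP+MSC, although both genes were higher in (dep)BCP+MSC. For Nr1d1 to Per2 the log2 ratio was -1.11 ± 0.99 in BCP, 2.17 ± 0.38 in BCP+MSC, 2.09 ± 0.26 with primed MSC and 0.74 ± 0.73 in BCP+MSC+Treg. It was 1.80 ± 0.67 in (dep)BCP+MSC. In (dep)BCP+MSC+RvE1inj it was 1.03 ± 0.23, with all samples (0.78 to 1.26) below those of BCP+MSC (1.64 to 2.48).

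**Figure D3:**
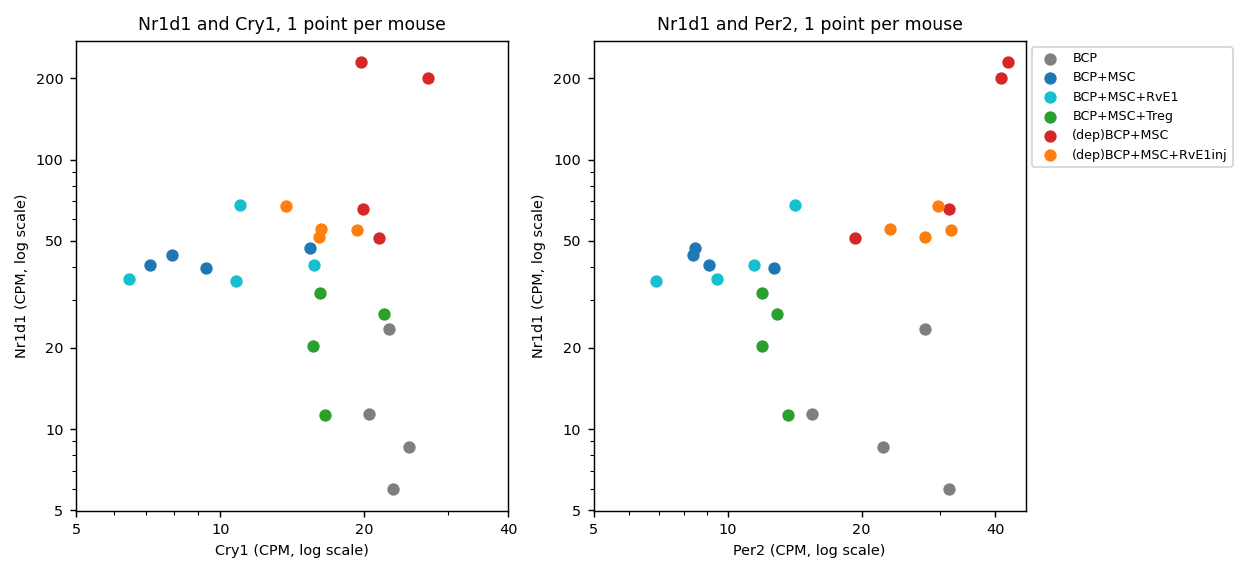
Nr1d1 (y axis) against Cry1 (left) and Per2 (right), all in CPM on log axes, with 1 point per mouse coloured by group. BCP mice (grey) sit low in Nr1d1 and high in Cry1 and Per2, BCP+MSC mice (dark blue) the other way round, and 2 of the 4 (dep)BCP+MSC mice (red) sit near 200 CPM of Nr1d1.

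To set the arms against each other, the mean log2 CPM of Arntl and Npas2 was subtracted from that of the 8 repressor and output genes in each sample. The difference was -0.45 ± 0.33 in the BCP samples, -0.14 ± 0.30 in those of BCP+MSC, 0.35 ± 0.69 with primed MSC and -0.37 ± 0.38 with added Treg. It was 1.82 ± 0.35 in (dep)BCP+MSC and 2.19 ± 0.54 in (dep)BCP+MSC+RvE1inj (SD, n = 4 each). Single samples were at 1.70, 2.25, 1.41 and 1.93 in the former and at 1.60, 1.91, 2.81 and 2.45 in the latter. The toxin-treated samples were all above the untreated ones, of which the nearest was BCP+MSC+RvE1 replicate 1 at 1.38 and the next BCP+MSC replicate 3 at 0.31. Since the members were chosen with their differences between these samples known, this separation is a description, and nothing is read from it. Replicates 1 and 2 of (dep)BCP+MSC did not stand apart in this difference, but they did in the 8 genes themselves. The mean log2 CPM of these was 6.11 and 6.08 there, against 5.52 and 5.19 in columns 4 and 5. The subtracted mean of Arntl and Npas2 was 4.41 and 3.84, against 4.11 and 3.27.

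**Figure D4:**
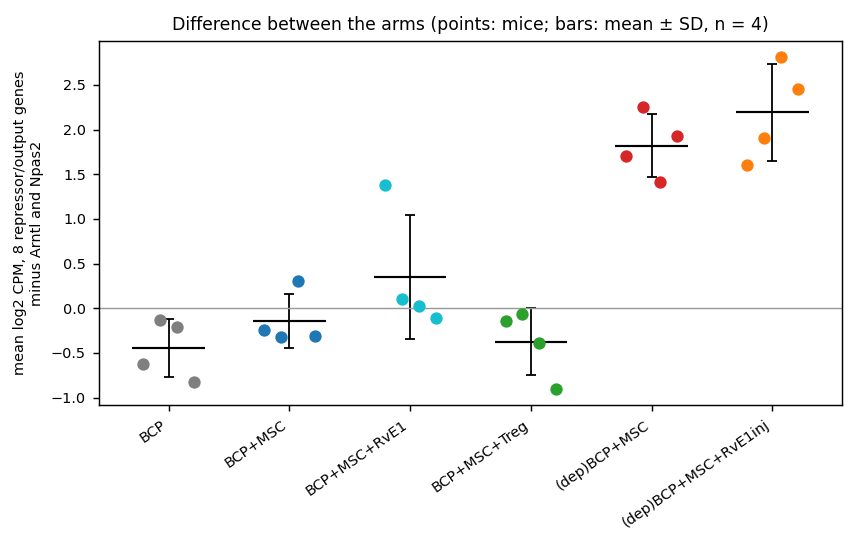
Mean log2 CPM of the 8 repressor and output genes minus that of Arntl and Npas2 (y axis) in the 6 groups (x axis), with 1 point per mouse and bars for the mean ± SD of 4 mice. The 8 toxin-treated mice lie between 1.41 and 2.81, above the 16 untreated mice at -0.90 to 1.38. The genes were chosen with their differences between these mice known.

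Within groups, after the group means were subtracted, the members varied together only in part. The points are 24 samples that share groups of 4 and differ in depth and tissue content. Over them, Nr1d2 and Per3 had a Pearson correlation of 0.74 (Spearman 0.56, Pearson 0.58 without the 2 samples farthest from the median of Nr1d2). Nr1d1 correlated with Tef at 0.62 (Spearman 0.62, Pearson 0.58 without 2 samples), and Arntl with Cry1 at 0.49 (Spearman 0.49, Pearson 0.70 without 2 samples). Nr1d1 and Cry1 were at 0.13 (Spearman 0.08), and at 0.12 in the 16 untreated samples alone. Nr1d1 and Per1 were at 0.13 too (Spearman -0.05), but at -0.50 in the untreated samples alone. Among 12375 genes compared in the same way, those most like Nr1d1 were Agfg2 (0.83), Camta1 (0.81), Sun2 (0.80), Slc20a2 (0.80) and E4f1 (0.79), and those most opposite Dab2 (-0.88), Vps8 (-0.88), Agfg1 (-0.87), Cd200r4 (-0.85) and Ccna2 (-0.85). Most like Arntl were Sbsn (0.88), Chd2 (0.88), Kctd20 (0.87), Usp24 (0.86) and Ddx21 (0.86). With Spearman's rho in place of Pearson's r, 0, 3 and 1 of these 5 genes each were again among the first 5. These lists were not recomputed without (dep)BCP+MSC replicates 1 and 2.

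Of 15 further genes of the clock, 6 rose in (dep)BCP+MSC against BCP+MSC and 0 fell (edgeR, adjusted p-value under 0.05). Over all genes, 1.75% rose and 2.17% fell. The median log2 fold change was 0.59, against -0.04 over all genes tested. The list was chosen with earlier results of these samples known, so its counts and p-values are a description. Rora, which activates through ROR elements, rose by 1.96 (SE 0.36, adjusted p = 0.00247 from edgeR), while Rorb, under 2 CPM in all samples, did not pass. The repressors Cry2 and Ciart rose by 2.29 (SE 0.40, adjusted p = 0.00206) and 2.00 (SE 0.38, adjusted p = 0.00372, edgeR). The clock-controlled genes Usp2 (a deubiquitinase, 2.21), Wee1 (a cell cycle kinase, 1.18) and Nampt (an enzyme of NAD synthesis, 1.01) rose as well. The call of Usp2 (adjusted p = 0.0271, edgeR) was lost in 5 of the 8 fits that left out 1 sample, with log2 fold changes from 1.77 to 2.37 there, while those of Wee1 and Nampt were kept in all 8. Clock itself, the partner of ARNTL, was at 0.07 (SE 0.21, adjusted p = 0.901, edgeR), and the kinases Csnk1d (-0.03) and Csnk1e (0.59), Hlf (0.48), Nfil3 (0.80), Bhlhe40 (-0.19), Bhlhe41 (-0.48) and Fbxl21 (-0.11) did not pass. Without replicates 1 and 2 of (dep)BCP+MSC, 0 of the 15 passed. Wee1 was then at 1.27 (adjusted p = 0.0796) and Nampt at 0.92 (adjusted p = 0.0711, edgeR), close to their values with all mice. By contrast Rora was at 1.00 (adjusted p = 0.238), Cry2 at 1.01 (adjusted p = 0.213) and Ciart at 1.09 (adjusted p = 0.329, edgeR), and Usp2 was at 1.66 (adjusted p = 0.379). The group then held 2 mice.

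In (dep)BCP+MSC+RvE1inj against the same BCP+MSC samples, Wee1 rose by 1.35 (SE 0.24, adjusted p = 0.00816, edgeR) and Nampt by 0.78 (SE 0.17, adjusted p = 0.0316). Of all genes, 0.258% passed as higher there. The rest of the 15 did not pass, among them Usp2 at 1.90, Cry2 at 1.34 and Ciart at 1.29. Each of these was higher without overlap, against 2.77% of all genes. Without (dep)BCP+MSC+RvE1inj replicate 2 or 3, or without BCP+MSC replicate 1, 2 or 3, 1 of the 15 passed, and the call of Nampt was lost in 5 of the 8 such fits. Across both toxin-treated groups against the untreated ones, 6 rose, against 8.79% of all genes. Bhlhe41 fell by 0.45 on the log2 scale (SE 0.15, adjusted p = 0.0499, edgeR), against 7.17% of all genes. That call of Bhlhe41 was lost in 17 of the 24 fits that left out 1 sample, with RLE normalization (adjusted p = 0.0647), and without (dep)BCP+MSC replicates 1 and 2 (-0.29, adjusted p = 0.345, edgeR). Nampt was at 136 to 230.2 CPM in the toxin-treated samples and at 85.0 to 135.3 CPM in the untreated ones, without overlap. It was the 1 gene of the 15 so separated, against 0.386% of all genes. The count of 6 was the same without (dep)BCP+MSC replicates 1 and 2. Between the toxin-treated groups 0 of the 15 passed (2 had an unadjusted p-value under 0.05 in edgeR).

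**Figure D5:**
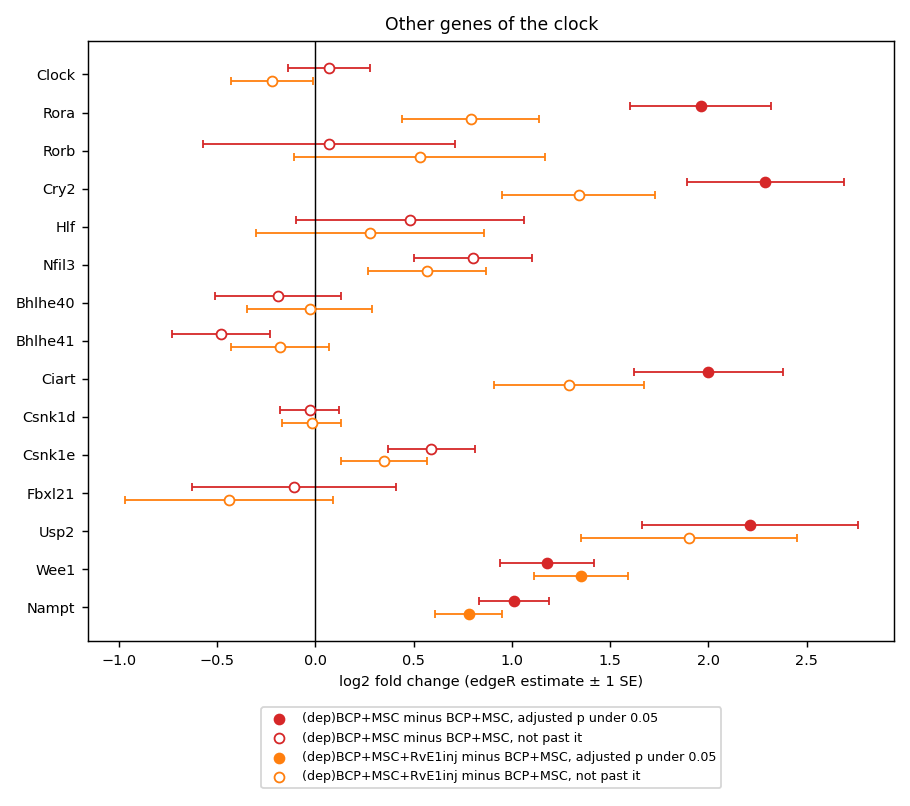
Log2 fold changes (x axis, edgeR estimate with bars of 1 SE) of 15 further clock genes (y axis) in (dep)BCP+MSC (red) and (dep)BCP+MSC+RvE1inj (orange) against the same 4 BCP+MSC mice, filled where the adjusted p-value was under 0.05. Of the red points 6 are filled and of the orange points 2, and Cry2, at 2.29, lies farthest to the right among the red points.

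Genes induced by glucocorticoids, which also act on Per1, were counted beside the members. Of 5, 4 rose in (dep)BCP+MSC against BCP+MSC, against 1.75% of all genes, namely Fkbp5 by 3.43 (SE 0.33, adjusted p = 5.11e-06, edgeR), Zbtb16 by 3.02 (adjusted p = 0.013), Pdk4 by 3.16 (adjusted p = 0.0488) and Tsc22d3 by 1.78 (adjusted p = 0.00269), while Sgk1 was at 0.42 (adjusted p = 0.311). This list too was chosen with earlier results of these samples known. The call of Pdk4 was lost in 5 of the 8 fits that left out 1 sample, and without (dep)BCP+MSC replicate 2 its log2 fold change was 1.87 (adjusted p = 0.249, edgeR). Fkbp5, which encodes a cochaperone of the glucocorticoid receptor, was at 39.4, 39.4, 38.2 and 64.0 CPM in BCP+MSC and at 569, 840.1, 332 and 205 CPM in (dep)BCP+MSC. Its highest values were in the same pair of mice as those of Nr1d1 and Per1. Fkbp5 and Tsc22d3 also rose in (dep)BCP+MSC+RvE1inj, by 2.83 (adjusted p = 0.00013) and 1.83 (adjusted p = 0.00816, edgeR). All 8 toxin-treated samples were above all untreated ones in Fkbp5 (205 to 840.1 against 30.7 to 64.0 CPM). The same held by a narrow gap in Tsc22d3 (272.4 to 566.8 against 67.5 to 267.5 CPM). Of all genes, 0.386% were so separated. Without (dep)BCP+MSC replicate 1, 2 of the 5 passed, and without replicates 1 and 2 Fkbp5 alone of the 5 passed against BCP+MSC, at 2.58 (adjusted p = 6.19e-05, edgeR). The part of glucocorticoid signalling in the clock genes was not tested.

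Markers of tissues that a construct could hold were counted in the same contrasts. In toxin-treated against untreated samples 8.79% of all genes passed as higher and 7.17% as lower. Of 8 fibroblast and matrix genes, 5 fell, with summed levels of 5944 to 20030 CPM in the toxin-treated samples and 12810 to 53570 CPM in the untreated ones. Of 8 T cell genes, 7 rose, with sums of 33.0 to 158 CPM against 27.0 to 81.2 CPM, and the 2 lowest sums of the toxin-treated samples were those of (dep)BCP+MSC replicates 1 and 2. Of 10 epidermis and hair genes, 2 rose, with sums of 21.8 to 440 CPM against 11.6 to 125 CPM. Among 15 skeletal muscle genes 1 rose and 1 fell, with sums of 8260 to 42780 CPM against 390.1 to 46910 CPM. Among 8 macrophage genes 2 fell, and of 8 adipocyte genes 0 passed. Dsg3, a desmosome gene of the epidermis, was at 0 in all BCP+MSC+RvE1 and all (dep)BCP+MSC+RvE1inj samples, and no other marker was at 0 throughout a group. Against BCP+MSC, 3 of 10 epidermis and hair genes rose in (dep)BCP+MSC (1.75% of all genes), with a median log2 fold change of 2.34 over the list. There 3 of 8 fibroblast and matrix genes fell (2.17% of all genes), with a median of -1.48. The medians in (dep)BCP+MSC+RvE1inj were 0.30 and -1.16, with 0 genes passing in either list, while 2 of 8 T cell genes rose. With the muscle score as a covariate, 6 of the 8 repressor and output members passed in (dep)BCP+MSC against BCP+MSC, and with the skin score 5, while Npas2 passed with the former and not with the latter, at a log2 fold change of -1.01 in both. Their part in the clock genes beyond these fits was not tested.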

How the data were processed

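RNA of whole constructs, 1 sample per mouse, was sequenced by the authors from stranded mRNA libraries as paired ends. Per the submitters' processing notes the reads were aligned with HISAT2 2.0.5 and counted on GENCODE M13 genes with featureCounts 1.5.2. The deposited values are these raw counts, from 8482701 to 144417743 per sample. The counting command named no strand option, and reads in overlapping genes were not counted.

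Counts were tested here with edgeR 4.0.16 (R 4.3.3) in 1 quasi-likelihood model of all 6 groups without covariates, with TMM normalization, robust dispersions and at least 10 counts over all samples. That left 30564 of 39183 genes with any count. P-values were adjusted by Benjamini-Hochberg over these genes. Log2 CPM used a prior count of 2, and fold changes are model estimates. FPKM was computed here from exon lengths. On counts simulated with larger changes than those of most members, the fit recovered most changed genes. Smaller changes and outlying mice were not simulated.

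Members and gene lists were chosen with earlier results of these data known. Named were all members and listed genes, apart from 2 clock genes that are not reported here for a reason unrelated to their values, and the 5 genes most like or opposite in pattern. Symbols came from GENCODE M21, which matched 50376 of 51138 identifiers, and positions are those of the deposited table, on GRCm38. Columns numbered 4 and 5 of (dep)BCP+MSC entered the group without a replicate number. Alternatives were RLE normalization, other filters, a replicate block, only the groups compared, muscle or skin scores, DESeq2 1.42.0 and single mice left out. After the data were seen, (dep)BCP+MSC replicates 1 and 2 were also left out together. The skin score, and the fit without columns 4 and 5 and without a block, were not planned beforehand either. Promoters were searched in Python 3.11.15.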

Additional observations from a re-analysis of the deposited data

Results flagged for a closer look

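In each group of 4 mice, the highest or lowest value of each member and of the difference between arms was compared with the others by Dixon's test, which flags about 1 in 20 groups by chance. Of 66 groups checked, 11 had a sample that stood apart.

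BCP+MSC+RvE1 replicate 1 stood apart in 4 of them. It had 67.9 CPM of Nr1d1 against 35.5 to 40.7 CPM in the other mice of its group, 35.45 CPM of Dbp against 4.70 to 7.04 CPM, and 26.94 CPM of Per3 against 7.07 to 9.93 CPM. Its difference between arms was 1.383 against -0.11 to 0.10.

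BCP+MSC replicate 3 had 87.77 CPM of Per1 against 36.9 to 42.0 CPM in the others, and a difference between arms of 0.3142 against -0.32 to -0.24. BCP+MSC replicate 2 had 12.71 CPM of Per2 against 8.38 to 9.09 CPM. In BCP+MSC+Treg, replicate 3 had 21.96 CPM of Cry1 against 15.6 to 16.6 CPM.

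In (dep)BCP+MSC+RvE1inj, replicate 3 had 199.6 CPM of Per1 against 124 to 129.7 CPM and 10.45 CPM of Arntl against 14.9 to 15.6 CPM, and replicate 1 had 18.19 CPM of Per3 against 23.7 to 24.2 CPM. In (dep)BCP+MSC no single mouse was flagged for any member, since its high Nr1d1 and Per1 values came in a pair.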

How the results depend on the processing

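No called difference of a member changed sign under any alternative run. The difference between arms was recomputed only with RLE normalization and with another prior count. A sample's scaling cancels in that difference, so its group means could hardly move, and nothing is read from it. Counts of genes passing did move. Of all genes, 534 passed as higher and 664 as lower in (dep)BCP+MSC against BCP+MSC. The higher genes numbered 848 with the filterByExpr filter, 81 with only the groups compared, 320 with the skin score, 1490 with DESeq2 and 21 without (dep)BCP+MSC replicates 1 and 2, and the lower genes 76, 403, 1405 and 22 in the last 4. Repressor and output members passing numbered 3 with only the groups compared and 1 without replicates 1 and 2, other clock genes 1 and 0, and glucocorticoid-induced genes 2 and 1, and 2 with the skin score.

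In (dep)BCP+MSC+RvE1inj against BCP+MSC (79 higher, 141 lower), the higher genes numbered 127 with filterByExpr, 25 with only the groups compared, 125 with the muscle score and 529 with DESeq2, and the lower genes 15 with only the groups compared and 583 with DESeq2. Members passing numbered 1 with only the groups compared and 5 with DESeq2, and other clock genes 0 and 5. Between the toxin-treated groups DESeq2 called 5 higher and 3 lower. In BCP+MSC against BCP the skin score gave 1 higher gene, and DESeq2 1 higher and 5 lower. In BCP+MSC+RvE1 against BCP+MSC DESeq2 gave 1 and 2. For toxin-treated against untreated samples (2686 higher, 2192 lower), the skin score gave 1509 and 1272, and leaving out both replicates 1229 and 975. With RLE normalization 1 member in place of 2 was without overlap. Only the groups compared was not run there, since it holds all samples. Fewer samples enter the fits with only the groups compared and with mice left out, and the cause of the other shifts was not tested.

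With single mice left out, (dep)BCP+MSC against BCP+MSC gave 200 to 759 higher and 267 to 913 lower genes, 4 to 7 members, 5 to 6 other clock genes and 2 to 4 glucocorticoid-induced genes. The counts over all genes were lowest without (dep)BCP+MSC replicate 1. (dep)BCP+MSC+RvE1inj against BCP+MSC gave 21 to 93 higher and 17 to 120 lower genes, 1 to 3 members, 1 to 2 other clock genes and 2 glucocorticoid-induced genes. The higher genes were fewest without BCP+MSC replicate 1 and the lower ones without (dep)BCP+MSC+RvE1inj replicate 4. Toxin-treated against untreated samples gave 1997 to 2809 higher and 1621 to 2304 lower genes.

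Replicate numbers name different mice and did not pair the samples. Same-numbered samples deviated from their group means with correlations from -0.34 to 0.57 for (dep)BCP+MSC+RvE1inj and BCP+MSC, and from -0.66 to 0 for BCP+MSC+RvE1 and BCP+MSC. A replicate block, which needs the 2 unnumbered (dep)BCP+MSC columns left out, gave 998 higher and 1445 lower genes in (dep)BCP+MSC against BCP+MSC, where leaving them out without a block gave 1408 and 1837. Between the toxin-treated groups the block gave 234 higher and 113 lower, and no block 466 and 229. For (dep)BCP+MSC+RvE1inj against BCP+MSC, no block gave 142 higher genes and 4 other clock genes.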
